A study of Arabidopsis thaliana with 12 samples.

Results

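PRXIIE (AT3G52960) is a type II peroxiredoxin of the plastid, and it was measured by 1 probe of the 3439 on the array. The probe was chosen by its annotation, which names AT3G52960 alone, as other probes do for a total of 691 genes. No probe names this gene together with others. Total RNA came from wild-type Arabidopsis thaliana of ecotype Columbia 0 in both groups, with no mutant allele in either. The 6 control samples were from plants held at 20 °C in medium light. The 6 recovered samples were from plants moved to 4 °C for 24 h without a change of light level, a treatment described as photoinhibitory in the labels, and afterwards returned to 20 °C for 24 h. Tissue and plant age are not stated in the sources used here. Samples from the end of the cold were not analysed here.

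Peroxiredoxins are thiol peroxidases. A cysteine in the active site is oxidized by hydrogen peroxide, an alkyl hydroperoxide or peroxynitrite, and is then returned to the thiol form by small redox proteins. In plastids these enzymes act beside the ascorbate peroxidases in removing peroxide formed around the photosynthetic electron transport chain. PRXIIE is the plastid member of the type II group, and glutaredoxin and thioredoxin can serve as its electron donors.

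PRXIIE was a bright probe in control plants and a middling one after recovery. On control arrays its deposited intensity, in arbitrary units on a scale from 0 to 100, was 3.18 in sample 1, 3.04 in sample 2, 2.34 in sample 3, 2.19 in sample 4, 3.47 in sample 5 and 3.36 in sample 6. On recovered arrays it was 0.238 in sample 1, 0.163 in sample 2, 0.0980 in sample 3, 0.108 in sample 4, 0.147 in sample 5 and 0.129 in sample 6. The groups did not overlap, and samples 3 and 4 were the lowest of both groups. The same absence of overlap, with every recovered sample below every control sample, was seen for 69.1% of all probes, so in deposited values it does not set PRXIIE apart.

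**Figure D1:**
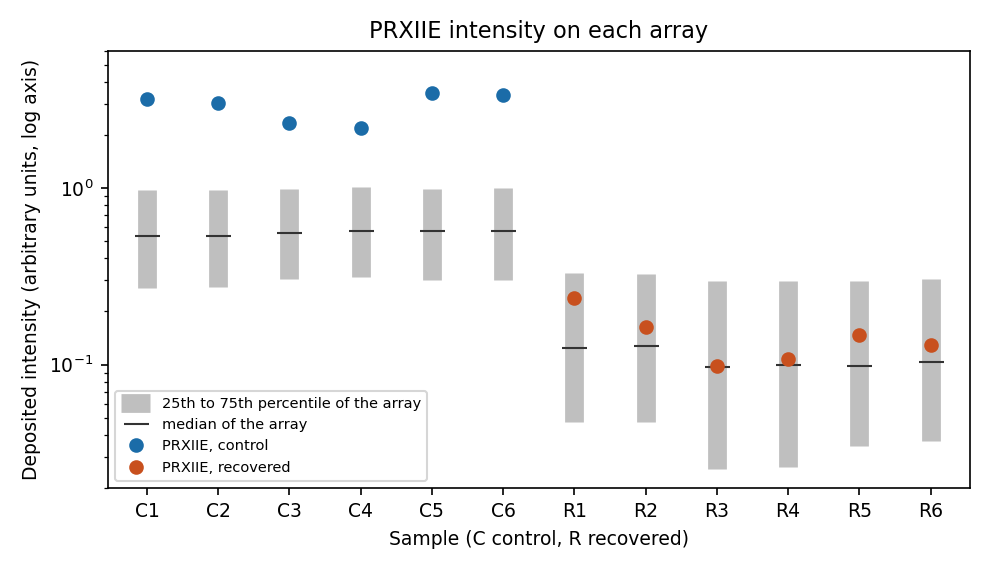
Deposited intensity of the PRXIIE probe (points, log axis, arbitrary units) on each of the 6 control and 6 recovered arrays, with the 25th to 75th percentile of all probes of that array (grey bar) and their median (black tick). The control points lie between 2.19 and 3.47, above the grey bar, and the recovered points between 0.0980 and 0.238, inside it.

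The control mean was 2.93 ± 0.536 and the recovered mean 0.147 ± 0.0504 (± SD over 6 samples), so that the recovered mean was 5.02% of the control mean. On the log2 scale the deposited difference, recovered minus control, was -4.36 (exact permutation test, two-sided, p = 0.00216, which is the minimum for 6 against 6). In bulk RNA, fewer cells of a type that express a gene and less of its RNA per cell cannot be told apart. The labels name no hybridization batch, so batch and group cannot be told apart. Most probes of the recovered arrays were lower. The array median was 0.536 to 0.569 on control and 0.0971 to 0.128 on recovered arrays, and the number of probes listed at 0 was 154 to 162 on control and 388 to 564 on recovered arrays. PRXIIE is therefore also given relative to the other probes of the same array.

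Relative to its array median, PRXIIE stood 3.85 to 6.10 times higher on control arrays and 1.01 to 1.90 times higher on recovered arrays. It was above the median of every recovered array and below the 75th percentile of every one (0.295 to 0.331). These places count the probes listed at 0. Among the 2409 probes with no value of 0 on any array, 1345 had a higher mean log2 recovered intensity than PRXIIE. The log2 of the ratio to the array median differed by -1.99 between the groups (same exact permutation test, p = 0.00216).

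The within-array rank, which no monotone rescaling of an array can change, gave the same order of the groups. Counted from the brightest of 3439 probes, PRXIIE ranked 125 to 263 on control arrays, with control sample 5 first and control sample 4 last. On recovered arrays it ranked 1086 to 1710, with recovered sample 1 first and recovered sample 3 last. As a percentile, where 100 is the brightest probe, the control mean was 94.9 ± 1.56 and the recovered mean 57.5 ± 6.49 (± SD over 6 samples), a difference of -37.3 points (same exact permutation test, p = 0.00216). In percentiles, 20.2% of all probes had every recovered sample below every control sample, and 237 of 3439 probes had a larger fall in mean percentile than PRXIIE. With neighbouring sample numbers merged within a group (1 with 2, 3 with 4, 5 with 6), the intensity and percentile differences had an exact p of 0.1, the minimum for 3 against 3.

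The test across all probes used the 2409 probes with no value of 0 on any array, after quantile normalization, which gives every array the same distribution of values. Limma called PRXIIE lower after recovery, with a log2 difference of -3.38 (SE 0.203, 95% interval -3.83 to -2.94, Benjamini-Hochberg adjusted p = 3.46e-08). It was lower in each of the 6 recovered samples than in every control sample on this scale too, as were 21.7% of the tested probes. Limma called 68.6% of the tested probes in either direction and 31.1% lower, and 27 of 2409 (1.12%) had a more negative difference than PRXIIE. Probes with a 0 on any array are outside this ranking, and zeros were more frequent on recovered arrays. Averaging consecutive samples keeps the estimate of -3.38 by construction, and the SE was wider at 0.285 (limma adjusted p = 0.000359). In that fit 23.6% of probes were called lower. The labels do not say whether the samples of a group are biological or technical replicates, and every p-value here rests on the spread among them.

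The direction held under every processing tried, while the size did not. The log2 difference was -4.36 as deposited, -3.21 after cyclic loess, -3.15 with arrays centred on their 75th percentile and -2.43 with arrays centred on their median. With a constant of 0.448 added to all recovered intensities, which makes the mean of the array medians equal in both groups, it was -2.28 (limma adjusted p = 1.49e-09). PRXIIE remained among the tested probes with the most negative differences: 3.24% lay below it as deposited, 1.08% after cyclic loess and 0.872% with the added constant.

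**Figure D2:**
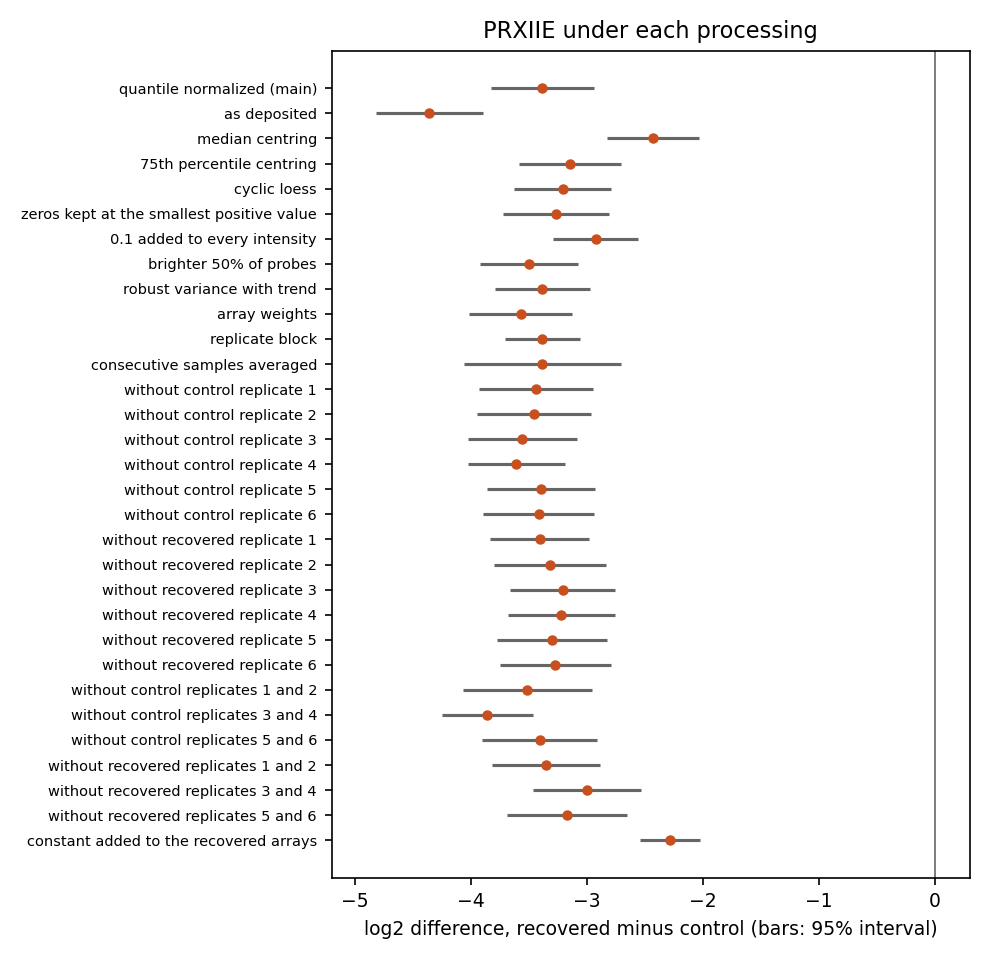
PRXIIE log2 difference, recovered minus control, from limma under each processing (points), with 95% intervals (bars). All estimates lie between -4.36 and -2.28, and no interval reaches 0.

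Probes as bright as PRXIIE in control plants mostly stayed bright, although many of them fell in rank. The comparison set was the 100 tested probes nearest to PRXIIE in mean log2 control intensity, 50 dimmer and 50 brighter, of which 17 name a single gene, 19 several and 64 none. Their control means ran from 2.42 to 4.53. Their recovered means ran from 0.0795 to 11.05, with a median of 2.30 and quartiles of 0.659 and 4.67, against 0.147 for PRXIIE. In mean percentile the median neighbour stood at 94.9 on control and 93.9 on recovered arrays, where PRXIIE stood at 57.5. In percentiles, 42 of the 100 neighbours had every recovered sample below every control sample, against 20.2% of all probes. In deposited intensity 44 of the 100 did, against 69.1% of all probes. A full separation of the groups was thus common among probes of this brightness.

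After quantile normalization the neighbours had a median log2 difference of -0.34, with quartiles of -1.66 and 0.37. Limma called 52 of them lower, 27 higher and 21 neither, where 31.1% of all tested probes were called lower and 37.5% higher. Of the 100, 8 had a more negative difference than PRXIIE, and in 13 the difference was below -3. This set holds no probe with a 0. With zeros kept at the smallest positive value and the 100 nearest probes chosen again, 11 were more negative than PRXIIE, which was at -3.27. The lowest of them was at -5.36. The balance of neighbours called higher and lower depends on the scaling. It was 34 higher and 51 lower as deposited, and 72 higher and 25 lower after median centring. Of all 2409 tested probes, 238 were called higher and 1819 lower as deposited, and 1085 higher and 669 lower after median centring. PRXIIE's own place moved little, with 7 neighbours below it in either of these scalings. Median centring adds 1 amount to every difference, so the order there is that of the deposited values by construction.

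**Figure D3:**
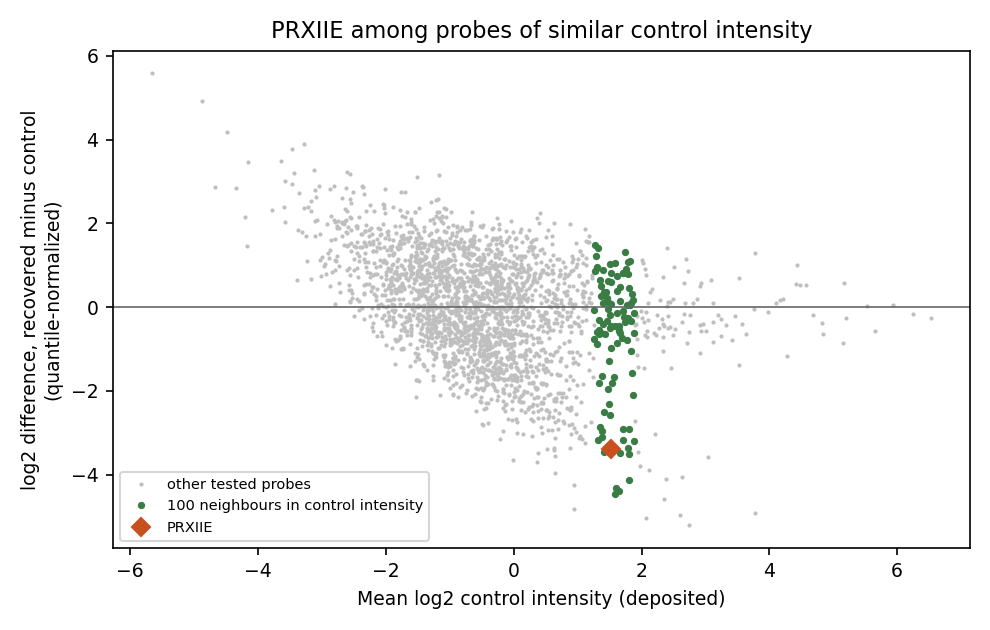
Log2 difference after quantile normalization (recovered minus control) against mean log2 control intensity for the 2409 tested probes, with the 100 neighbours in control intensity in green and PRXIIE as an orange diamond. PRXIIE, at -3.38, lies near the lower end of the green column, whose median is -0.34.

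PRXIIE was also placed within this set array by array. On control arrays 17 to 97 of the 100 neighbours were brighter than PRXIIE, the fewest in control sample 5 and the most in control sample 4. On recovered arrays 88 to 96 were brighter, the fewest in recovered sample 1. Control samples 3 and 4, with 89 and 97 brighter neighbours, thus overlapped with the recovered arrays by this count, although their PRXIIE intensity was far above any recovered value.

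**Figure D4:**
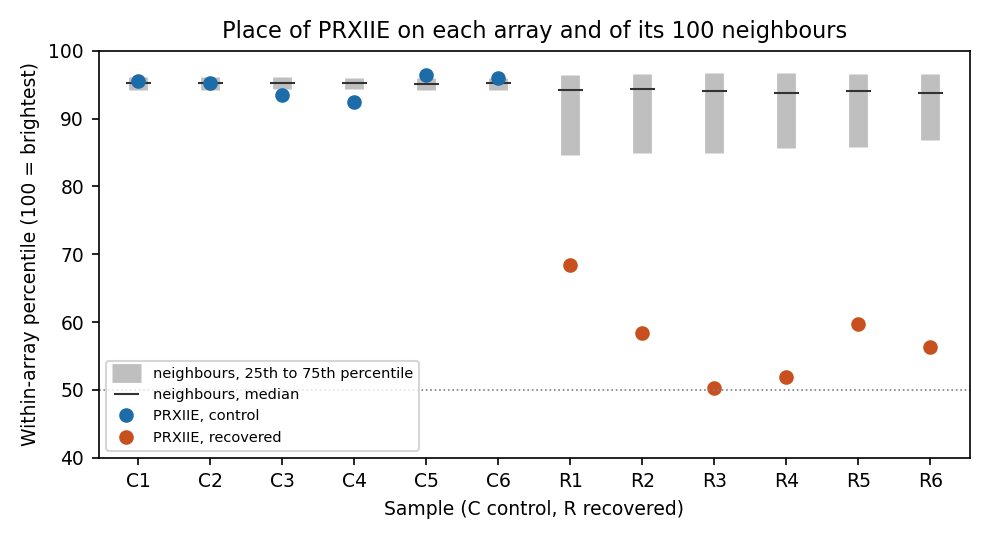
Within-array percentile of PRXIIE (points, 100 is the brightest probe) on each array, with the 25th to 75th percentile (grey bar) and the median (black tick) of its 100 neighbours in control intensity. PRXIIE lies between 92.4 and 96.4 on control arrays and between 50.3 and 68.5 on recovered arrays, where the neighbours' medians stay between 93.8 and 94.4.

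Of the neighbours that name a single gene, the 5 nearest on each side ranged widely after recovery. AT3G04210, the nearest on the brighter side, had a control mean of 2.94 and a recovered mean of 0.577. AT3G18870 had a control mean of 3.01 and a recovered mean of 0.0795, the lowest of the 10. AT5G63290 went from 2.63 to 0.554. The geranylgeranyl reductase AT1G74470, which acts in the synthesis of chlorophyll and tocopherol side chains, had means of 2.65 and 2.86. The plastid NADP-dependent malate dehydrogenase AT5G58330, which exports reducing power as malate, had means of 3.26 and 1.92. CUTA, a member of the CutA protein family, went from 3.06 to 6.33, the highest recovered mean of the 10. The remaining 4, AT1G51350, AT3G52070, AT2G37510 and AT4G39690, had control means of 2.52 to 3.33 and recovered means of 1.497 to 3.43. These genes are described by their deposited means, without a test.

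PRXIIE varied more than most probes of its brightness between control samples. Between recovered samples its standing depended on the comparison set. The coefficient of variation of its intensity was 18.3% in control and 34.3% in recovered samples. The SD of its deposited log2 intensity was 0.28 in control samples, larger than in 81 of the 100 neighbours, whose median SD was 0.15. In recovered samples it was 0.46, larger than in 90 of the same 100 neighbours, whose median SD was 0.21. Those 100 neighbours were far brighter than PRXIIE on recovered arrays, so a further 100 probes were taken, the nearest in mean log2 recovered intensity (recovered means of 0.137 to 0.208), a choice made after seeing the data. The SD of PRXIIE was larger than in 49 of these, whose median SD was 0.47. The order of the group SDs turned with the scaling, and after quantile normalization the SD was 0.41 in control and 0.31 in recovered samples.

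The control spread followed the sample numbers. Consecutive control samples differed by 0.062 (1 and 2), 0.098 (3 and 4) and 0.048 (5 and 6) on the log2 scale, and other control samples by 0.080 to 0.66. The means of the consecutive control samples were 3.11, 2.27 and 3.41. Across the 2409 tested probes, deviations of deposited log2 intensity from the group mean correlated at 0.843 to 0.927 between consecutive control samples and at -0.699 to -0.0181 between other control samples. Between recovered samples these correlations were -0.154 to 0.0278 for consecutive and -0.295 to -0.158 for other samples. Consecutive samples were thus nearer to each other there too, by a much smaller margin. Deviations from a group's own mean correlate negatively on average, so negative values alone show no opposition between samples. For PRXIIE, consecutive recovered samples differed by 0.54, 0.14 and 0.19. Leaving out control samples 3 and 4, the lowest of their group, gave a log2 difference of -3.86, and leaving out recovered samples 3 and 4 gave -2.998 (limma adjusted p = 1.64e-07 and 1.08e-06).

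Few genes of the same redox chemistry had a probe of their own. Of 67 genes in 4 lists (peroxiredoxins, plastid thiol donors and regenerators, other enzymes that act on peroxide and superoxide, and enzymes of ascorbate and glutathione), 4 had a probe that names them alone, 9 appeared only on probes shared with other genes and 54 had no probe. PRXIIE was the sole peroxiredoxin of 10. The other 3 were plastid thiol donors and regenerators: NTRC, AT2G04700 and the sulfiredoxin SRX. Of the 3 genes that could be tested after quantile normalization, PRXIIE was lower, AT2G04700 was higher and NTRC did not pass. Over all tested probes 31.1% were lower and 37.5% higher.

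NTRC is a plastid thioredoxin reductase with its own thioredoxin domain, which uses NADPH to reduce the 2-Cys peroxiredoxins. Its intensity was 0.508 to 0.788 in control samples (median 0.600) and 0.144 to 0.224 in recovered samples (median 0.173). Every recovered sample was below every control sample, as for 69.1% of all probes. As deposited the log2 difference was -1.82 (limma adjusted p = 1.25e-07), after quantile normalization it was 0.17 (SE 0.141, adjusted p = 0.303). Its mean percentile was 54.4 on control and 63.4 on recovered arrays.

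AT2G04700 was entered in the list as the catalytic subunit of the ferredoxin-thioredoxin reductase, which passes electrons from ferredoxin to plastid thioredoxins. Its intensity was 0.275 to 0.538 in control samples and 0.262 to 0.390 in recovered samples, and the groups overlapped, since control samples 1 and 2 lay at 0.275 and 0.304. The log2 difference was 1.46 after quantile normalization (SE 0.175, limma adjusted p = 1.13e-05) and -0.38 as deposited (adjusted p = 0.0752), so its direction depends on the scaling. Its mean percentile was 38.6 on control and 75.1 on recovered arrays.

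SRX, which repairs over-oxidized 2-Cys peroxiredoxins, was not in the test because recovered sample 2 is listed at 0. It was dim in both groups, at 0.190 to 0.353 in control samples. The other recovered samples lay between 0.0245 and 0.116, so every recovered sample was below every control sample, as for 69.1% of all probes. Its mean percentile was 21.8 on control and 25.7 on recovered arrays.

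**Figure D5:**
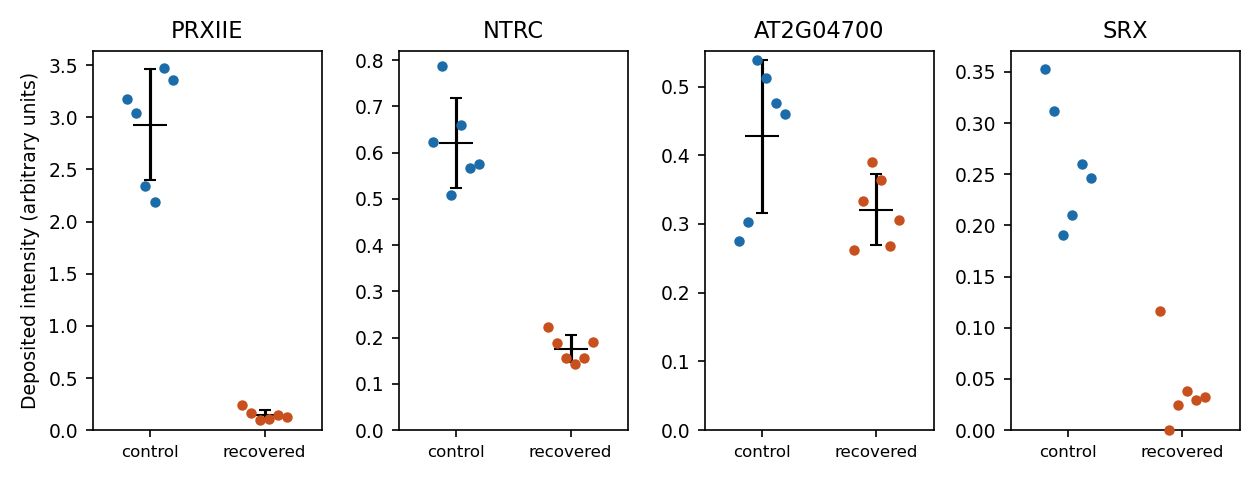
Deposited intensity (arbitrary units, each panel with its own axis from 0) of PRXIIE, NTRC, AT2G04700 and SRX in 6 control and 6 recovered samples (points), with mean and SD (black) except for SRX, which has a value listed at 0. The recovered points lie below all control points for PRXIIE, NTRC and SRX and overlap with them for AT2G04700. In deposited intensity, 69.1% of all probes have every recovered sample below every control sample.

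Within an array, the ratio of PRXIIE to another gene does not depend on a factor common to the array. The log2 ratio of PRXIIE to NTRC was 1.73 to 2.61 in control and -0.67 to 0.085 in recovered samples, a difference of -2.54. The log2 ratio of PRXIIE to AT2G04700 was 2.10 to 3.53 in control and -1.99 to -0.14 in recovered samples, a difference of -3.97. Neither ratio overlapped between the groups (exact two-sided permutation p = 0.00216 for each, 0.00216 after Benjamini-Hochberg adjustment over these 2 tests, with 6 of 6 recovered samples below all controls). PRXIIE was thus lowered relative to both genes, a comparison chosen after their values had been seen. These 2 tests treat all samples as independent and were not repeated with consecutive samples merged. Against the other 2408 tested probes, the ratio was lower in every recovered than in every control sample for 74.0%, and higher without overlap for 4 probes. For the 100 neighbours these counts were 83 and 0, and 17 overlapped.

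The genes most like PRXIIE over the 12 samples all had lower deposited intensities after recovery, by sizes that depend on the scaling. Choosing genes by their r with PRXIIE, which was itself lower, fixed that direction in advance. As deposited, limma called 75.5% of all tested probes lower. Pearson's r of deposited log2 intensity with PRXIIE was 0.990 for AT4G18180, 0.989 for AT2G41950, 0.988 for AT1G61990, and 0.987 for both AT2G29870 and AT5G41960, the 5 highest of the 467 other tested single-gene probes. Control and recovered means were 4.22 and 0.0710 for AT4G18180, 1.24 and 0.0774 for AT2G41950, and 0.880 and 0.0912 for AT1G61990. For AT2G29870 they were 1.38 and 0.135, and for AT5G41960 0.815 and 0.161. After quantile normalization the log2 differences were -5.04, -2.31, -1.35, -1.82 and -0.50 in the order of naming. AT5G41960 thus changed least of these genes on this scale, though limma called it lower (adjusted p = 0.00425). Its mean percentile was 67.2 on control and 60.6 on recovered arrays. The arrays share their scaling and the 2 groups, so such values are common: r was above 0.95 for 632 of the 2408 other tested probes, with a median of 0.890.

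Within the groups, after each gene's group means were taken off, other genes came first. The r of these deviations over the 12 samples was 0.844 for AT1G05490, a chromatin remodeling gene, 0.819 for AT1G73740, 0.808 for AT2G28540, 0.793 for PSBW and 0.778 for AT2G17670. The median over all tested probes was 0.135, and 135 of 2408 lay above 0.7. PSBW, a small subunit of photosystem II, had a mean intensity of 25.7 in control and 43.1 in recovered samples, and its r over the 12 samples was -0.918. Its log2 difference was 0.74 as deposited and -0.20 after quantile normalization, so its direction turned with the scaling, and its mean percentile was 99.7 on control and 99.6 on recovered arrays. AT1G73740 and AT2G17670 had control means of 1.89 and 1.08 and recovered means of 0.0856 and 0.0709, with log2 differences of -3.36 and -2.16 after quantile normalization. AT2G28540 had deposited means of 1.26 and 0.241, and quantile normalization put its log2 difference at -0.82, which did not pass (limma adjusted p = 0.112). AT1G05490 had deposited means of 1.59 and 0.963, but its log2 difference was 0.0035 after quantile normalization and 1.17 after median centring. Consecutive control samples resembled each other across the array, so the 12 points behind these values are not independent.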

How the data were processed

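The deposited values are spot intensities, linear and bounded by 0 and 100. What the authors did to obtain an intensity (background correction, scaling, floor) is not stated in the labels or the table. Columns were matched to samples by their names, and groups were taken from the titles. Probe annotation names a single gene for 692 probes, several for 870 and none for 1877. It was matched to loci of the TAIR10.1 gene table through gene numbers, and 691 of 692 matched. PRXIIE is the name used for AT3G52960, for which that table has no symbol.

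Only the 2409 probes above 0 on all arrays entered the fit. Their log2 intensities were quantile normalized and tested with limma 3.58.1 in R 4.3.3 (lmFit and eBayes, two-sided, no replicate block), with Benjamini-Hochberg adjustment and a threshold of 0.05. Recovered arrays hold more zeros, so this filter is not blind to the group. The fit was tested on simulated data. Single values were tested with exact permutation tests over samples. Signal above background is unknown for this table, and the number of arrays limits the precision.

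Named genes were PRXIIE, the 5 single-gene probes with the highest r over all samples, the 5 with the highest r within groups, the 5 nearest on each side in control intensity, and every list member with its own probe. The gene, the lists and the tests were chosen with earlier results of these data known. Alternatives covered scaling, zeros, an offset of 0.1, dim probes, the variance model, array weights, a replicate block, averaged or left-out samples, and the set of neighbours.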

Additional observations from a re-analysis of the deposited data

Results flagged for a closer look

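For the genes named above, 48 groups of 6 samples were checked for a single distant sample, and 2 held one, where chance gives about 2.4. Neither was PRXIIE, whose highest recovered sample, at 0.238, lay apart by 0.534 of the group's range, against the 0.625 needed. The SRX intensity was 0.116 in recovered sample 1 and at most 0.0387 in the 5 other samples of that group. The CUTA intensity was 7.003 in recovered sample 2 and 6.05 to 6.36 in the 5 others.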

How the results depend on the processing

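The PRXIIE log2 difference was below 0 and past the threshold in all 30 alternatives (-4.36 to -2.28, limma adjusted p at most 0.000359). It was -3.61 to -3.21 on leaving out 1 sample and -3.86 to -2.998 on leaving out 1 consecutive pair. Averaged samples, the replicate block and the variance model keep the estimate of -3.38 by construction and bear only on its SE. The constant added to the recovered arrays and the ratios to NTRC and AT2G04700 were chosen after seeing the data. With consecutive samples averaged, the deposited difference of -4.36 and the percentile difference of -37.3 had an exact p of 0.1, the minimum for 3 against 3. The share of neighbours with a more negative difference was 8.0%, against 12.5% among 40 neighbours and 5.19% among the nearest single-gene probes, of which 27 are brighter in control, so that this set holds 77. PRXIIE had a larger SD in recovered samples than 90.0% of the neighbours in control intensity and than 49.0% of those matched in recovered intensity, a set chosen after seeing the data. Against 1653 probes called (903 higher, 750 lower), deposited values gave 238 higher and 1819 lower, and the brighter 50% of probes gave 925 calls (524 higher, 401 lower), with fewer probes tested. NTRC turned to -1.82 as deposited and -0.61 with centring on the 75th percentile, and AT2G04700 to -0.38 as deposited. NTRC passed as higher with zeros kept (0.38, adjusted p = 0.0412) and without control samples 1 and 2 (0.32, adjusted p = 0.0347). With the replicate block PRXIIE was at -3.38 (limma adjusted p = 6.58e-06) and 1624 probes were called. For deposited log2 intensity, the exact sign-flip test of its 6 differences (mean -4.36) gave p = 0.0312, the smallest possible. Equal numbers in the 2 groups were not taken as pairing samples. The correlation of their deviations was low, from -0.0106 to 0.0958, but 7 of 12 samples correlated best with their own number. Whether equal numbers are pairs is thus not settled. The unknown background limits the size of the PRXIIE decrease.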
